A study of Rattus norvegicus with 20 samples.

Results

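The Asb, Klhl, Fbxo and Trim genes encode ubiquitin ligase components that choose the protein to be tagged. The members were the entries of the gene table with 1 of these 4 family names and a number that reached 1 FPKM in 5 or more of the 20 libraries. FPKM is a level per transcript length and sequencing depth. The atrophy ligases Trim63, Trim54, Trim55, Fbxo32 and Fbxo30 were left out. This gave 89 members among 21926 entries, with 15 Asb, 26 Klhl, 20 Fbxo and 28 Trim genes. In all, 138 entries carried such a name: 94 passed the filter, of which 5 were left out, and 44 stayed below it (1 Asb, 9 Klhl, 13 Fbxo and 21 Trim). Klhl25 and Klhl5 lay just inside the filter, with 8 libraries at 1 FPKM or more. For Klhl25 all 8 were gastrocnemius libraries, and for Klhl5 5 were ischemic soleus. Asb7 lay just outside it with 4.

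Most members work as substrate receptors of cullin-RING ligases. An Asb protein binds elongin and cullin 5 through its SOCS box, a Klhl protein binds cullin 3 through its BTB domain, and an Fbxo protein binds Skp1 and cullin 1 through its F-box. Most Trim proteins carry their own RING domain and can act without a cullin. Several members are known for roles in striated muscle: Klhl40 and Klhl41 are nemaline myopathy genes, Klhl31 acts on filamin C in mouse, Asb2 acts on filamins, Fbxo40 acts on the insulin receptor substrate Irs1, and Trim72 (MG53) works in membrane repair.

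RNA came from skeletal muscle of Sprague Dawley rats, and the series set out to compare the effect of limb ischemia in 2 muscles. The 4 groups of 5 libraries were ischemic gastrocnemius, sham gastrocnemius, ischemic soleus and sham soleus, where ischemia, called chronic by the series title, was made with an endovascular catheter that occluded the ilio-femoral vessels. No age, sex or time after the operation could be read from the labels, and the labels do not say whether 2 libraries came from 1 rat. P-values therefore weigh the difference between groups against the spread of libraries within them, which may be partly technical. In bulk muscle fewer cells of a type and less RNA per cell cannot be told apart. The totals were 53.6 to 85.4 M counts per library.

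The muscles matched their labels. The summed level of 11 slow fibre markers was 179.9 to 9433 FPKM in ischemic gastrocnemius, 241.7 to 10440 in sham gastrocnemius, 31150 to 36390 in ischemic soleus and 40150 to 54400 in sham soleus, and none was at 0 in a whole group. Sham soleus library 4 stood apart: only 8048 genes reached 1 FPKM there, and 10644 to 10876 did in the rest of sham soleus. Correlated with its own group it had a median of 0.765, and the rest had 0.975 to 0.977. On the TMM scale used for CPM below, it lay below the other 4 in 48 of the 89 members and above them in 34; in FPKM it lay below in 71 and above in 10. Results that rest on sham soleus are given with and without it where that matters.

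A few members made up much of the summed level. Klhl41 had the highest mean over the 20 libraries, 492.7 FPKM, which was 53.0% of the summed level of the Klhl members and 24.2% of that of all 89. Asb2 followed with 232.6 FPKM, Trim72 with 193.1 and Klhl31 with 109.3. These 4 were the members at or above 100 FPKM, and 33 reached 10 FPKM. Klhl40 had 94.2 FPKM, Asb5 73.2, Trim35 54.6 and Fbxo40 46.0. The family medians were 18.6 FPKM for Asb, 8.84 for Klhl, 6.55 for Fbxo and 4.00 for Trim.

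Klhl41, a kelch protein of the sarcomere, averaged 374 ± 58.8 FPKM in ischemic gastrocnemius, 372 ± 25.5 in sham gastrocnemius, 639 ± 93.3 in ischemic soleus and 586 ± 257 in sham soleus (SD, n = 5 each). The large SD in sham soleus goes with library 4, in which Klhl41 had 669 CPM (counts relative to TMM-scaled library size), against 1348 to 1649.9 in the other 4. Fbxo40 averaged 50.4 ± 7.35 FPKM in ischemic gastrocnemius, 61.9 ± 17.7 in sham gastrocnemius, 35.9 ± 3.92 in ischemic soleus and 35.9 ± 19.6 in sham soleus. Fbxo6, a receptor for glycoproteins, averaged 41.3 ± 5.38, 45.2 ± 3.54, 40.4 ± 3.46 and 53.1 ± 25.7 FPKM in the same 4 groups. Its gene model overlaps the entry AC094126.2 on the same strand, which makes its level uncertain.

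**Figure D1:**
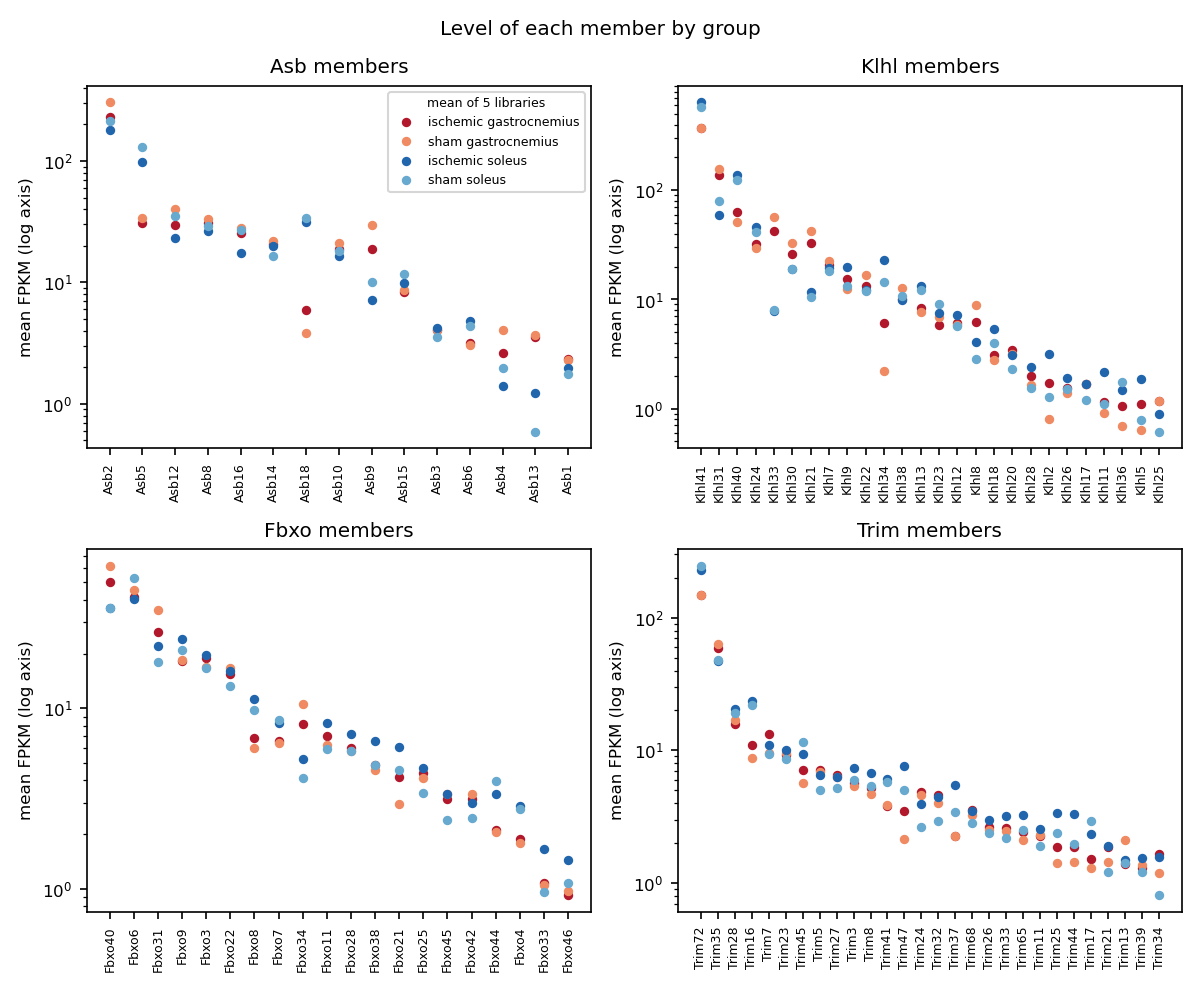
Mean FPKM of each member (log axis) in the 4 groups, 5 libraries each, with the members of each family sorted by their mean over 20 libraries. Klhl41, Asb2 and Trim72 lead the Klhl, Asb and Trim families, and Klhl33 averages 42.7 and 57.3 FPKM in gastrocnemius against 7.79 and 8.03 in soleus (ischemic and sham).

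The first comparison asked how the members differ between the muscles without ischemia. After sham operation, 32 of the 89 members (36.0%) differed between gastrocnemius and soleus (edgeR, adjusted p below 0.05 over all genes tested, here called), against 24.9% of the 11693 genes tested. Of these, 20 were higher in gastrocnemius (11.4% of all genes were) and 12 were lower (13.5% of all genes). By family, 4 Asb, 9 Klhl, 4 Fbxo and 3 Trim members were higher, and 2 Asb, 3 Klhl, 2 Fbxo and 5 Trim members were lower. The median log2 fold change of the members was 0.21, against -0.10 over all genes. The split depended on the scaling. With library totals in place of TMM factors, 11 members were higher and 13 lower, with a median of -0.17 over all genes. The shares of all genes called in that fit are not given here, so this split is not read as a result about the members. In 16 members all sham gastrocnemius libraries lay above all sham soleus libraries, and in 5 they lay below, where 9.1% and 7.69% of all genes did.
The members with the largest called difference in each direction that stayed called under every alternative fit were Klhl33 and Asb13, higher in gastrocnemius, and Asb18 and Asb5, lower in it. Their promoter windows (250 bases before to 50 after the start, RefSeq, build GRCr8) are shown to give the sequence around the start of the genes that the muscle comparison turns on. Capitals mark matches to the MyoD-type E-box CAGCTG, which reads the same on both strands, or to the MEF2 motif, searched on both strands, and the matches do not overlap.
Klhl33 (chr15:26589717-26590016, minus strand): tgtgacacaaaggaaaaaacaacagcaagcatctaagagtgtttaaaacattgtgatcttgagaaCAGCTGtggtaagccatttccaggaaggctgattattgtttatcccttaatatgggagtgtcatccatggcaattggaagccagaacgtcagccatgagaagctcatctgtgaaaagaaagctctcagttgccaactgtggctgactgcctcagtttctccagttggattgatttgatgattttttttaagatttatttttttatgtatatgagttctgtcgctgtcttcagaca
Asb13 (chr17:71493189-71493488, minus strand): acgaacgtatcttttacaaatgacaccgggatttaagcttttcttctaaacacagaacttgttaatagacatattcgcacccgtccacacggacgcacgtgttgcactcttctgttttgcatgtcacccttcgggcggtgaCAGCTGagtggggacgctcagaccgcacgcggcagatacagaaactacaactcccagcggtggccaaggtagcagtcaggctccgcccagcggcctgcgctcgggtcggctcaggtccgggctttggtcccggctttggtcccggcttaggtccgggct
Asb18 (chr9:98043421-98043720, minus strand): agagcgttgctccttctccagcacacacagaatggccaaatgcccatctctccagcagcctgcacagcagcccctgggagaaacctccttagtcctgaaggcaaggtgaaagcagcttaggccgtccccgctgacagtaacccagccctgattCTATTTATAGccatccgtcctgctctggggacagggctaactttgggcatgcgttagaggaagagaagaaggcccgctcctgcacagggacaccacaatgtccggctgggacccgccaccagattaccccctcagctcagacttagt
Asb5 (chr16:44010388-44010687, minus strand): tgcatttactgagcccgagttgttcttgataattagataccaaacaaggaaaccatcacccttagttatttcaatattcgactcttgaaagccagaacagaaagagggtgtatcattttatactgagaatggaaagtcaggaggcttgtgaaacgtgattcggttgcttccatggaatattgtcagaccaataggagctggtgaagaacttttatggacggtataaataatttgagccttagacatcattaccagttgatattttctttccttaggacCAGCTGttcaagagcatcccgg

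The Klhl33, Asb13 and Asb5 windows each held 1 E-box and the Asb18 window held 1 MEF2 match. Of the windows of 300 bases the first listed per gene was kept, so any other start of a gene was not searched. A window was found for 81 of the 89 members. An E-box stood in 19 of these 81 (23.5%), against 15.1% of all 27457 windows kept. A MEF2 match stood in 7 (8.64%), against 3.37%. An E-box stood in 5 of the 19 matched members that were called higher in gastrocnemius and in 5 of the 12 called lower, and a MEF2 match in 1 and 3 of them. Median GC content was 58.7% in the members' windows and 52.3% in all windows. These are matches of letters and were not tested.

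Among the Klhl members, Klhl33 (ENSRNOG00000025868, chromosome 15, 27813393 to 27815261 in the table, which names no build) showed the largest difference. Klhl33 had 67.6, 73.1, 183, 101 and 112 CPM in sham gastrocnemius, against 13.7, 14.7, 12.5, 1.41 and 20.9 CPM in sham soleus. Every gastrocnemius library lay above every soleus library, and the lowest value was that of sham soleus 4. The log2 fold change was 3.08 ± 0.55 (SE, edgeR adjusted p = 0.000516), and 2.80 ± 0.45 without sham soleus 4. Klhl21, which works with cullin 3 in cell division in human cells, had 146, 158, 230.4, 221 and 184 CPM in sham gastrocnemius, against 43.9, 38.4, 37.1, 71.3 and 45.4 CPM in sham soleus. Again the muscles did not overlap, and the log2 fold change was 1.99 ± 0.23 (edgeR adjusted p = 1.06e-05).

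Klhl8, whose relative in Caenorhabditis elegans acts on the receptor-clustering protein rapsyn, had a log2 fold change of 1.82 ± 0.27. Klhl31 had 1171, 935, 1497, 833 and 1244 CPM in sham gastrocnemius, against 563, 576, 513, 321 and 578 CPM in sham soleus. The muscles did not overlap for Klhl31 either, with a log2 fold change of 1.16 ± 0.25 (edgeR adjusted p = 0.00274). Klhl25 (0.99 ± 0.19), Klhl30 (0.85 ± 0.20), Klhl20 (0.60 ± 0.16), Klhl22 (0.53 ± 0.19) and Klhl7 (0.39 ± 0.14) were also higher in gastrocnemius. Klhl25 passed the filter through gastrocnemius alone, the muscle in which it was higher. With no filter its edgeR adjusted p was 0.00136. Klhl22 and Klhl7 were not called in most alternatives.

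Klhl40, Klhl34 and Klhl36 were the Klhl members lower in gastrocnemius. Klhl40, which stabilises the thin filament proteins nebulin and Lmod3 in mouse, had 116, 177, 120.5, 114 and 150.1 CPM in sham gastrocnemius, against 191, 294, 307, 697 and 255 CPM in sham soleus. The groups did not overlap, and sham soleus 4 was the highest on this scale; in FPKM it had 146 against 87.3 to 141 in the other 4. The log2 fold change was -1.37 ± 0.29 (edgeR adjusted p = 0.00208), and -0.95 ± 0.21 without that library. Klhl34 had 5.48, 5.23, 0.775, 9.55 and 3.78 CPM in sham gastrocnemius, against 51.8, 10.9, 57.1, 7.13 and 12.4 CPM in sham soleus. Klhl34 spread widely within soleus and the muscles overlapped, with a log2 fold change of -2.49 ± 0.84 (edgeR adjusted p = 0.0373). Klhl36 had -1.57 ± 0.43, and -0.82 ± 0.29 without sham soleus 4. Klhl41, the most abundant member, was not called (-0.47 ± 0.20, edgeR adjusted p = 0.0895), but was called without sham soleus 4 (-0.65 ± 0.12, adjusted p = 0.000596).

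Of the Asb members 4 were higher in gastrocnemius and 2 lower. Asb13 had 5.62, 5.59, 6.86, 13.4 and 9.29 CPM in sham gastrocnemius, against 1.34, 0.870, 0.771, 0.875 and 2.09 CPM in sham soleus. The muscles did not overlap, with a log2 fold change of 2.77 ± 0.36 (edgeR adjusted p = 3.09e-05). Asb13 reached 1 FPKM in all 10 gastrocnemius libraries and in 4 soleus libraries, so it passed the filter only through gastrocnemius. With no filter its edgeR adjusted p was 4.16e-05. Asb9, which binds creatine kinase, had 83.8, 70.5, 114, 89.6 and 70.5 CPM in sham gastrocnemius, against 28.1, 26.0, 20.8, 51.5 and 23.7 CPM in sham soleus. Its log2 fold change was 1.51 ± 0.26 (edgeR adjusted p = 0.000338), with no overlap. Asb4, known from vascular endothelium, and Asb14 were higher too, with 1.28 ± 0.45 and 0.58 ± 0.20. Asb4 overlaps Pon3 and Pon2 on the opposite strand, and without sham soleus 4 Asb14 was not called (0.45 ± 0.18, edgeR adjusted p = 0.0605). Neither was called in most alternatives.

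Asb18 (ENSRNOG00000019557, chromosome 9, 97085234 to 97151832) had 6.73, 11.8, 5.23, 3.26 and 6.51 CPM in sham gastrocnemius, against 42.3, 37.4, 38.1, 166 and 54.9 CPM in sham soleus. All soleus libraries lay above all gastrocnemius libraries, and sham soleus 4 was again far above the rest in CPM. The log2 fold change was -3.34 ± 0.52 (edgeR adjusted p = 0.00017), and -2.69 ± 0.43 without that library. Asb5 had 60.0, 155, 85.1, 73.9 and 79.6 CPM in sham gastrocnemius, against 305, 455, 345, 146 and 307 CPM in sham soleus. The single overlap was between sham soleus 4 and sham gastrocnemius 2, and the log2 fold change was -1.78 ± 0.34 (edgeR adjusted p = 0.000861).

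No Fbxo or Trim member differed by more than Fbxo34 did. Fbxo34 was higher in gastrocnemius by 1.44 ± 0.27 on the log2 scale (edgeR adjusted p = 0.000857), and Fbxo31, which acts on cyclin D1, by 0.91 ± 0.27. Fbxo42 (0.50 ± 0.16) and Fbxo22 (0.43 ± 0.14) completed the higher Fbxo members, while Fbxo44 (-1.01 ± 0.30) and Fbxo8 (-0.67 ± 0.14) were lower. Fbxo6 and Fbxo44 lie 3582 bases apart on chromosome 5. The Fbxo34 gene model overlaps a U1 entry on the same strand, and that of Fbxo22 overlaps Nrg4 on the opposite strand. Among the Trim genes, the transcriptional regulator Trim24 (1.03 ± 0.36), the endoplasmic reticulum protein Trim13 (0.67 ± 0.18) and the limb-girdle muscular dystrophy gene Trim32 (0.64 ± 0.22) were higher in gastrocnemius. Trim47 (-1.38 ± 0.41), Trim17 (-1.24 ± 0.24), Trim16 (-1.19 ± 0.24), Trim72 (-0.60 ± 0.16) and Trim41 (-0.50 ± 0.12) were lower. Trim24 and Trim32 were not called in most alternatives. The gene models of Trim17 and Trim32 overlap other entries on the opposite strand. Without sham soleus 4, Trim47 was not called (-0.84 ± 0.34, edgeR adjusted p = 0.0614). In that library Trim17 had 13.4 CPM and Fbxo44 11.6, against means of 5.48 and 5.01 in the other 4, farther from gastrocnemius. It lay nearer to gastrocnemius for Fbxo31 (91.3 CPM, against a mean of 41.9) and Trim16 (54.7, against 101). Trim72 had 379.6, 496, 425, 293 and 460.5 CPM in sham gastrocnemius, against 643, 632, 669.7, 461 and 707 CPM in sham soleus. The only soleus library within the gastrocnemius range was sham soleus 4. That library also decided the direction of Asb12 and Fbxo6, which were not called with it (-0.03 ± 0.34 and -0.49 ± 0.37) and were called higher in gastrocnemius without it (0.70 ± 0.15 and 0.38 ± 0.11, edgeR adjusted p = 0.00177 and 0.0138).

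**Figure D2:**
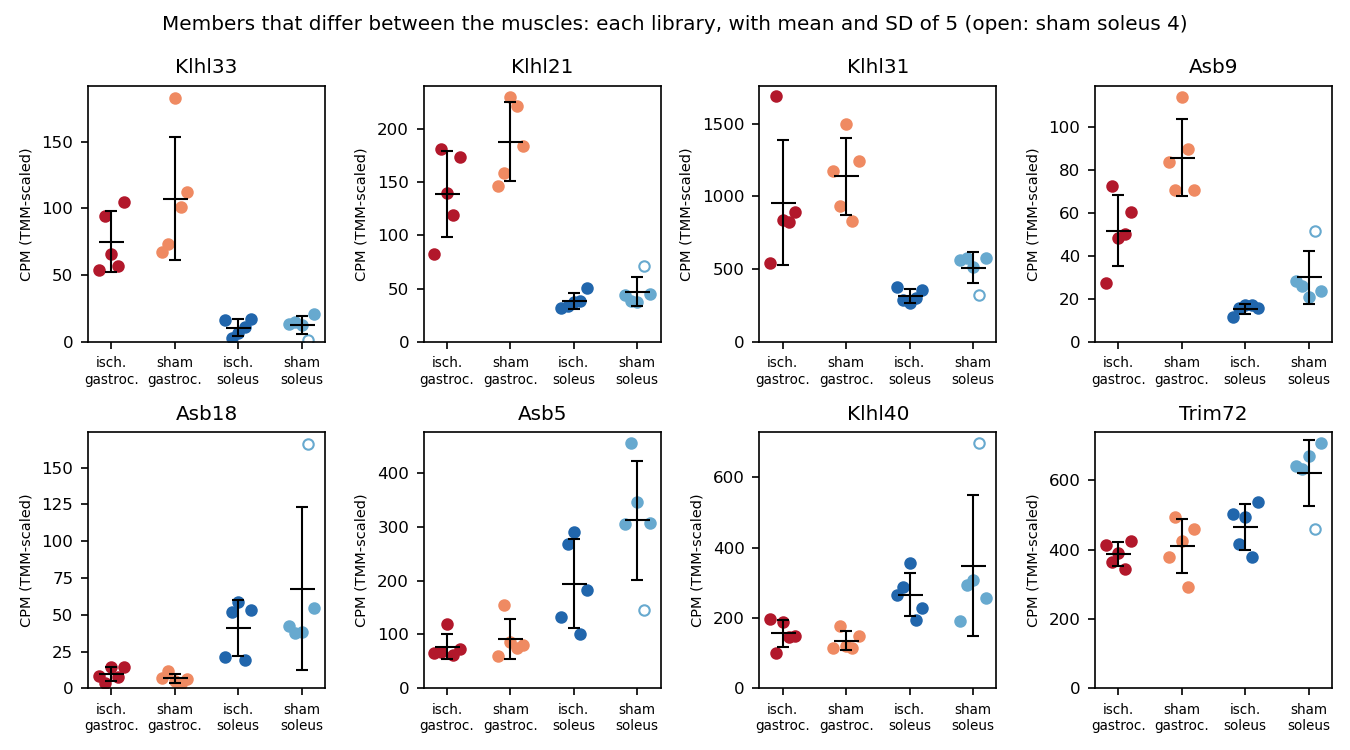
CPM (TMM-scaled) of 8 members in each library, with ischemic left of sham within each muscle; bars are the mean and SD of 5 libraries and the open circle is sham soleus 4. Klhl33, Klhl21, Klhl31 and Asb9 lie higher in both gastrocnemius groups, and Asb18, Asb5, Klhl40 and Trim72 lie higher in sham soleus than in sham gastrocnemius.

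The left-out atrophy ligases showed both directions, with called log2 fold changes of 0.68 ± 0.19 for Trim63, 1.39 ± 0.49 for Fbxo32 and -0.49 ± 0.17 for Trim55 in sham gastrocnemius over sham soleus. Trim54 and Fbxo30 were not called in any comparison.

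The same contrast in ischemic muscle asked whether the muscle difference was also there after occlusion. In ischemic gastrocnemius against ischemic soleus 18 of 89 members (20.2%) were called, against 12.6% of all genes tested. Of these, 14 were higher (7.87% of all genes) and 4 lower (4.73% of all genes), by family 4 Asb, 8 Klhl, 1 Fbxo and 1 Trim higher and 2 Asb and 2 Trim lower. The split turned with the scaling. With library totals in place of TMM factors 5 members were higher and 13 lower, while the median of all genes moved to -0.38. On log2(FPKM + 1) limma gave 5 higher and 17 lower. The shares of all genes called in these fits are not given here, so the splits are not read as results about the members. Klhl33, Asb13, Klhl21, Klhl31 and Asb9 were called higher, and Asb18, Asb5 and Trim37 lower, under all 31 alternatives. Leaving out sham soleus 4, which enters through the shared estimate of spread, gave 39 called members against 32.4% of all genes, and without ischemic gastrocnemius 2 there were 9, against 7.26%.

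The ischemic and sham libraries are separate, so the 2 muscle comparisons share no library. They shared 14 called members, all with the same direction in both, which were 43.8% of the 32 called after sham and 77.8% of the 18 called after ischemia. Over all genes tested, 1118 were called in both, all in the same direction, which were 38.4% of the sham calls and 75.9% of the ischemic calls, so the members' shares lay near the background. Of these, 11 were higher in gastrocnemius: Klhl33, Klhl21, Klhl8, Klhl31, Klhl30, Klhl25, Klhl20, Klhl7, Asb13, Asb9 and Fbxo34. The other 3, Asb18, Asb5 and Trim16, were lower. Klhl7 after sham and Trim16 after ischemia were not called in most alternatives. No difference between the 2 contrasts was called for any member, which is the interaction given at the end.

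Klhl33 had 53.7, 94.2, 66.1, 56.5 and 105 CPM in ischemic gastrocnemius, against 16.1, 2.70, 6.38, 11.3 and 17.0 CPM in ischemic soleus. The muscles did not overlap, with a log2 fold change of 2.81 ± 0.54 (edgeR adjusted p = 0.002). Klhl21 had 82.6, 181, 139.9, 119 and 173 CPM in ischemic gastrocnemius, against 31.3, 33.9, 37.7, 38.6 and 50.7 CPM in ischemic soleus, a log2 fold change of 1.86 ± 0.23. Klhl31 had 543, 1687, 840.3, 823 and 892 CPM in ischemic gastrocnemius, against 379, 285, 265, 304 and 354 CPM in ischemic soleus. Ischemic gastrocnemius 2 was the highest library for Klhl31, no libraries overlapped, and the log2 fold change was 1.59 ± 0.26 (edgeR adjusted p = 0.000447).

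Asb9 had 27.5, 72.5, 48.1, 50.4 and 60.6 CPM in ischemic gastrocnemius, against 11.5, 15.5, 17.1, 16.9 and 15.6 CPM in ischemic soleus. These did not overlap either, with a log2 fold change of 1.76 ± 0.26 (edgeR adjusted p = 0.000195). Asb18 had 8.39, 3.42, 14.7, 7.49 and 14.4 CPM in ischemic gastrocnemius, against 21.0, 51.9, 58.8, 19.4 and 53.1 CPM in ischemic soleus. All gastrocnemius libraries lay below all soleus libraries, and the log2 fold change was -2.08 ± 0.50 (edgeR adjusted p = 0.00962).

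The members called after ischemia and not after sham were Asb16 (0.90 ± 0.29), Asb8 (0.58 ± 0.15), Trim35 (0.69 ± 0.22) and Trim37 (-0.93 ± 0.20). Asb16 and Trim35 were not called in most alternatives. Trim37, a gene of peroxisomes and centrosomes, had 10.6, 5.46, 7.89, 12.2 and 8.49 CPM in ischemic gastrocnemius, against 14.3, 18.9, 18.1, 18.4 and 15.5 CPM in ischemic soleus. The muscles did not overlap for Trim37. It was 1 of 6 members wholly below in ischemic gastrocnemius, where 9.68% of all genes were, and 16 were wholly above, where 11.4% were. Its gene model overlaps Ppm1e on the opposite strand. Klhl40 (-0.77 ± 0.29, edgeR adjusted p = 0.0847) and Klhl34 (-1.62 ± 0.81, adjusted p = 0.207) were not called after ischemia.

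**Figure D3:**
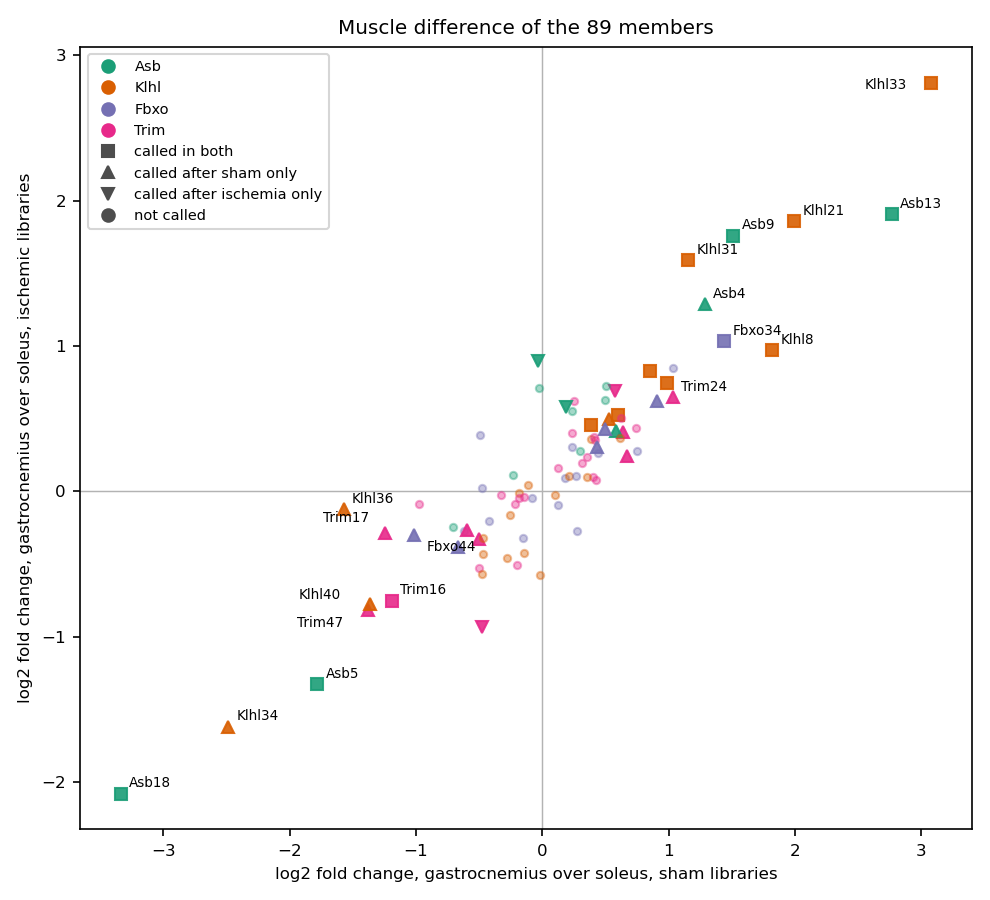
Log2 fold change of gastrocnemius over soleus for the 89 members, in sham libraries on the horizontal axis and in ischemic libraries on the vertical axis, with colour for the family and shape for the edgeR call. Klhl33 lies at 3.08 and 2.81 and Asb18 at -3.34 and -2.08, and the 14 members called in both lie in the upper right or lower left.

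Genes of the machinery that the receptors dock on were also compared. Of 46 tested genes for cullins, adaptors, neddylation and signalosome subunits and ubiquitin-conjugating enzymes, 12 were higher and 1 lower in sham gastrocnemius than in sham soleus, with a median log2 fold change of 0.07, against 11.4% and 13.5% of all genes. After ischemia 10 were higher and 0 lower, with a median of 0.22, against 7.87% and 4.73% of all genes. With library totals the counts were 8 and 1 after sham and 3 and 1 after ischemia. The ubiquitin-conjugating enzyme gene Ube2d1 had 2.07 ± 0.25 after sham and 2.00 ± 0.25 after ischemia. The signalosome subunit Cops3 had 1.14 ± 0.16 and 1.12 ± 0.16, and the neddylation cofactor Dcun1d2 had 1.11 ± 0.18 and 1.52 ± 0.19. These genes lie far above the list medians and do not stand for the list. The 1 gene called lower after sham is not named here. Cul3, the cullin of the Klhl receptors, had 1.01 ± 0.19 after sham and 0.77 ± 0.19 after ischemia, both called. Cul1, the cullin of the Fbxo receptors, was called after sham (0.47 ± 0.12), and Cul5, that of the Asb receptors, in neither (0.22 ± 0.40 after sham and 0.20 ± 0.40 after ischemia).

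Among 19 tested substrates and binding partners of the muscle members, 2 were higher and 6 lower in sham gastrocnemius than in sham soleus, with a median log2 fold change of -0.45. Of all genes, 11.4% were called higher and 13.5% lower. Filamin C (Flnc), on which Klhl31 and Asb2 act, had -1.09 ± 0.26, and the Klhl40 partner Lmod3 had -0.48 ± 0.14. After ischemia 1 was higher and 1 lower, with a median of -0.11, against 7.87% and 4.73% of all genes. With library totals the substrate counts were 1 and 6 after sham and 0 and 4 after ischemia. No gene of these 2 lists was called for ischemia in either muscle. Of the 46 machinery genes, 37 lay below 0 in gastrocnemius (median -0.21) and 35 in soleus (median -0.27). Of all genes, 49.4% lay above 0 in gastrocnemius and 46.9% in soleus. With library totals 32 machinery genes lay below 0 in gastrocnemius. In soleus 34 of them lay above it (median 0.11, against 0.31 for all genes), so the soleus direction turned with the scaling. With library totals 1 substrate and 1 other receptor were called higher in ischemic soleus. Among 54 receptors of other families, such as Fbxl, Socs and Wsb genes, 7 were higher and 9 lower after sham, and 4 were higher and 4 lower after ischemia. The shares of all genes are those given for the substrates. With library totals these became 2 and 5 after sham and 1 and 10 after ischemia.

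Fibre type markers differed between the muscles as well. All 11 slow fibre markers were called lower and all 10 fast fibre markers called higher in sham gastrocnemius than in sham soleus. The gastrocnemius libraries themselves spread along this axis: the mean log2 CPM of the slow markers minus that of the fast ones was -1.94, -8.85, -2.78, -3.48 and -2.57 in ischemic gastrocnemius, against -4.97, -2.07, -8.59, -7.35 and -4.54 in sham gastrocnemius. In the 10 gastrocnemius libraries, with a term for treatment, 14 of the 89 members had a called slope on this score. Of all genes 15% had one, so the count of members lay near the background and the slopes are given gene by gene. With a slower profile 6 of the 14 members rose, led by Trim47 (0.25 ± 0.06 log2 per score unit) and Asb18 (0.25 ± 0.05). Klhl36, Trim16, Klhl40 and Klhl9 rose too. The other 8 fell, led by Klhl8 (-0.18 ± 0.02) and Fbxo34 (-0.18 ± 0.04), with Klhl31, Asb16, Klhl30, Fbxo40, Fbxo42 and Klhl7.

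Klhl8 had 16.2, 36.4, 23.2, 18.0 and 20.1 CPM in ischemic gastrocnemius, against 29.2, 19.0, 54.7, 43.3 and 28.3 CPM in sham gastrocnemius. Its highest library in each group was the one with the fastest profile, ischemic gastrocnemius 2 and sham gastrocnemius 3. The count of called slopes rested on few libraries, among the members as among all genes. It was 2 without ischemic gastrocnemius 2 (3.21% of all genes) and 22 without sham gastrocnemius 1 (21.5% of all genes). Without sham gastrocnemius 2 or 3 it was 8, where 12.3% and 6.94% of all genes had a called slope. Klhl33, Klhl21, Asb13, Asb9 and Asb5 had no called slope.

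In soleus, the comparison of ischemia with sham gave no called member, against 1.03% of all genes tested. The lowest adjusted p among the members was 0.0521 for Asb16 (edgeR), and 20 of 89 (22.5%) had an unadjusted p under 0.05, against 27.8% of all genes. DESeq2 called 9 members: Asb8, Asb9, Asb12, Asb16, Trim17 and Trim72 lower and Klhl2, Klhl5 and Fbxo33 higher in ischemic soleus. These were 10.1% of the members, against 12% of all genes in that fit, and Klhl5 passed the filter only through ischemic soleus. Without sham soleus 4 the edgeR fit called 6 (6.74%, against 6.15% of all genes), all lower: Asb8, Asb12, Asb15, Asb16, Klhl23 and Trim72. It called 6 without sham soleus 3, 5 without sham soleus 5, 3 without ischemic gastrocnemius 1 or 2, and 1 without sham gastrocnemius 1. The shares of all genes in these last fits are not given here, so these counts are not read as results about the members.

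The median log2 fold change of the Asb family in ischemic over sham soleus was -0.57, with 13 of 15 members below 0, against -0.07 for Klhl, -0.05 for Fbxo, 0.00 for Trim and -0.04 for all genes. Without sham soleus 4 the Asb median was -0.39, again with 13 of 15 below 0. With library totals the Asb median was -0.13 with 10 of 15 below 0, the medians of the other families lay between 0.26 and 0.35, and that of all genes was 0.31.

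Asb16 had 52.1, 39.9, 59.3, 36.4 and 39.8 CPM in ischemic soleus, against 69.5, 81.2, 75.5, 198 and 75.9 CPM in sham soleus. Asb12 had 32.2, 26.2, 32.1, 28.6 and 30.2 CPM in ischemic soleus, against 44.5, 44.4, 36.9, 185 and 46.7 CPM in sham soleus. For both genes every ischemic library lay below every sham library, and sham soleus 4 was far above the other 4 in CPM. Their log2 fold changes were -1.14 ± 0.29 for Asb16 and -1.26 ± 0.35 for Asb12 (edgeR adjusted p = 0.0521 and 0.0594). Without sham soleus 4 they were -0.73 ± 0.21 and -0.53 ± 0.15 (adjusted p = 0.0484 and 0.048). The Asb16 gene model overlaps a 7SK entry on the same strand, and that of Asb12 overlaps the entry AABR07038948.2 on the opposite strand.

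Asb8 had 42.5, 49.1, 47.5, 46.4 and 52.6 CPM in ischemic soleus, against 59.4, 69.3, 59.5, 104 and 61.9 CPM in sham soleus. Asb9 had 11.5, 15.5, 17.1, 16.9 and 15.6 CPM in ischemic soleus, against 28.1, 26.0, 20.8, 51.5 and 23.7 CPM in sham soleus. In CPM neither pair of groups overlapped, and sham soleus 4 was above the rest of its group for both genes. In FPKM Asb9 did not overlap, but Asb8 did, with 22.7 to 29.7 in ischemic soleus against 23.3 to 34.0 in sham soleus. The log2 fold changes were -0.57 ± 0.15 for Asb8 and -0.97 ± 0.25 for Asb9 (edgeR adjusted p = 0.0549 and 0.0539). Without sham soleus 4 the edgeR fit called Asb8 and did not call Asb9. In all, the 5 ischemic libraries lay wholly below the 5 sham libraries in 6 members, of which 4 were Asb genes, and wholly above in 1. Over all genes 6.62% lay wholly below and 6.89% wholly above, so the count of members below lay near the background.

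Of the other families, Klhl2, a kelch protein that binds actin, was the member wholly above. It had 12.9, 6.15, 5.52, 9.93 and 6.76 CPM in ischemic soleus, against 3.47, 4.85, 4.60, 1.56 and 5.03 CPM in sham soleus. Its log2 fold change was 1.08 ± 0.34 (edgeR adjusted p = 0.0722), and 0.88 ± 0.31 without sham soleus 4. Trim17 had 3.68, 3.05, 4.77, 3.75 and 4.27 CPM in ischemic soleus, against 5.93, 5.61, 5.21, 13.4 and 5.15 CPM in sham soleus. These did not overlap in CPM (-0.85 ± 0.24, edgeR adjusted p = 0.0598). In FPKM Trim17 overlapped, with 1.82 to 2.82 in ischemic soleus against 2.69 to 3.24 in sham soleus. It was not called in the edgeR fit without sham soleus 4. Fbxo6 had the smallest p of the Fbxo members (-1.09 ± 0.37, edgeR adjusted p = 0.0798), and -0.22 ± 0.11 without sham soleus 4, in which it had 216 CPM against 38.3 to 47.8 in the other 4.

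Other markers moved in the same libraries. The summed level of 7 fibroblast markers was 1112 to 2368 FPKM in ischemic soleus, against 254.3 to 566.9 in sham soleus, with 7 of 7 higher and 1 called. That of 11 macrophage markers was 213.9 to 330.6 FPKM in ischemic soleus, against 61.97 to 213.3 in sham soleus, with 9 of 11 higher and none called. That of 11 slow fibre markers was 31150 to 36390 FPKM in ischemic soleus, against 40150 to 54400 in sham soleus, with 11 of 11 lower and none called. Summed markers of endothelium (90.71 to 134.5 FPKM in ischemic soleus, against 36.72 to 77.43 in sham soleus), neutrophils and lymphocytes (15.2 to 26.38, against 2.215 to 12.5), Schwann cells (42.85 to 87.81, against 16.42 to 40.05) and tendon (132.6 to 308.6, against 55.6 to 100.3) also did not overlap between the groups. Sums for mural cells (140 to 196.4, against 68.64 to 154.6) and adipocytes (150.2 to 457.7, against 29.83 to 185.1) overlapped. Those for erythrocytes, regenerating fibres and fast fibres overlapped too. No marker of the fibroblast, macrophage and slow fibre lists was at 0 in a whole group, and the part of these lists in the values of the Asb members was not tested.

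**Figure D4:**
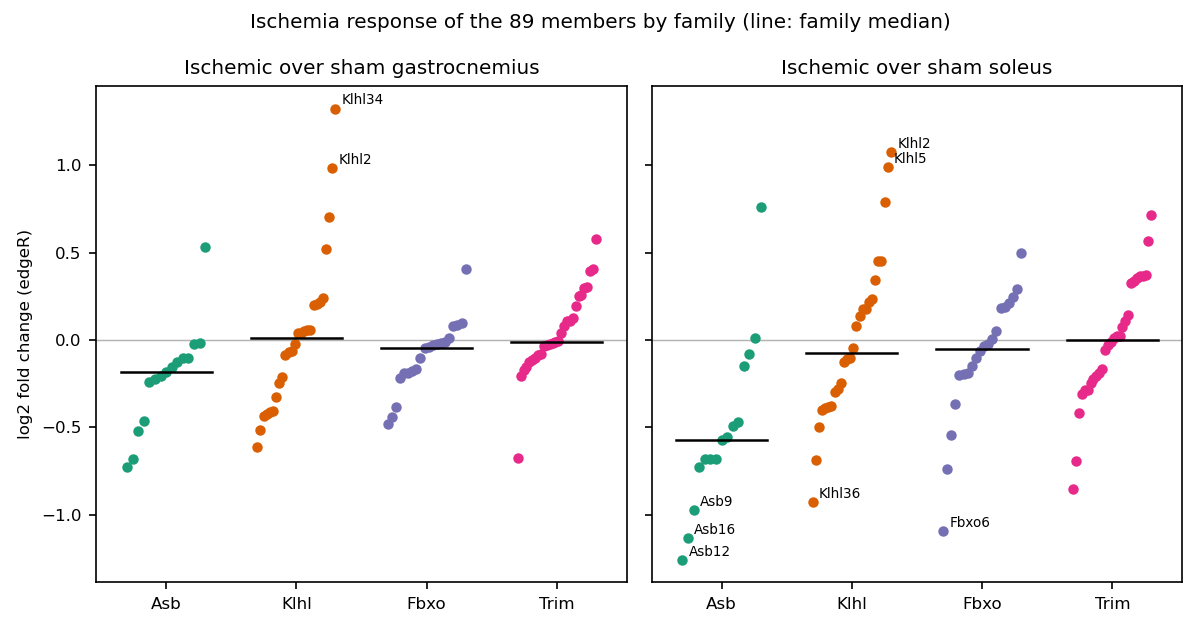
Log2 fold change (edgeR) of ischemic over sham for the 89 members, sorted within each family, in gastrocnemius on the left and soleus on the right; the black line is the family median. The Asb median lies at -0.18 in gastrocnemius and -0.57 in soleus, and no member was called in either muscle.

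In gastrocnemius, ischemia against sham also gave no called member, as for all genes tested (0%). The lowest adjusted p among the members was 0.692, for Trim13, and 7 of 89 (7.87%) had an unadjusted p under 0.05, against 6.22% of all genes. DESeq2 called 1 member, Trim13, and 0.0941% of all genes. Trim13 had 2.10, 1.63, 2.19, 2.24 and 2.25 CPM in ischemic gastrocnemius, against 4.03, 3.61, 2.60, 3.20 and 3.18 CPM in sham gastrocnemius. It was the only member without overlap between these groups, where 1.41% of all genes had none and 0.564% lay wholly below, with a log2 fold change of -0.68 ± 0.18.

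In gastrocnemius 14 of 15 Asb members lay below 0, with a median log2 fold change of -0.18, against 0.01 for Klhl, -0.05 for Fbxo, -0.01 for Trim and 0.00 for all genes. With library totals 12 of 15 lay below 0, with a median of -0.10, and without ischemic gastrocnemius 1 the median was -0.07 with 11 of 15 below 0. Asb9 had the smallest p of the Asb members (-0.73 ± 0.25, edgeR adjusted p = 0.728). The smallest p of the Klhl and Fbxo members belonged to Klhl2 (0.98 ± 0.34) and Fbxo31 (-0.48 ± 0.26), with edgeR adjusted p = 0.728 and 0.828. All 11 slow fibre markers lay above 0 and all 10 fast fibre markers below 0 in the same comparison, with none called.

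The difference between the muscles in their response to ischemia was tested as the interaction, and no member was called, as for all genes (0%). Of the members, 5 (5.62%) had an unadjusted p under 0.05, against 6.48% of all genes, and no alternative called a member. The smallest p in each family belonged to Asb16 (0.93 ± 0.40), Klhl36 (1.45 ± 0.60), Fbxo33 (-0.55 ± 0.26) and Trim17 (0.96 ± 0.34), where a positive value is a higher ischemic to sham ratio in gastrocnemius than in soleus. Each had an edgeR adjusted p of 0.721. Of the 15 Asb members 12 lay above 0, with a median of 0.32. Leaving out sham soleus 4 gave 10 members with a median of 0.14, and Asb16 and Klhl36 moved to 0.53 ± 0.29 and 0.70 ± 0.40. With library totals it was 6 members.

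Among the other lists, the 5 tested Trim genes linked to interferon gave no call in any comparison, with medians of 0.30 and 0.32 for ischemic over sham gastrocnemius and soleus.

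**Figure D5:**
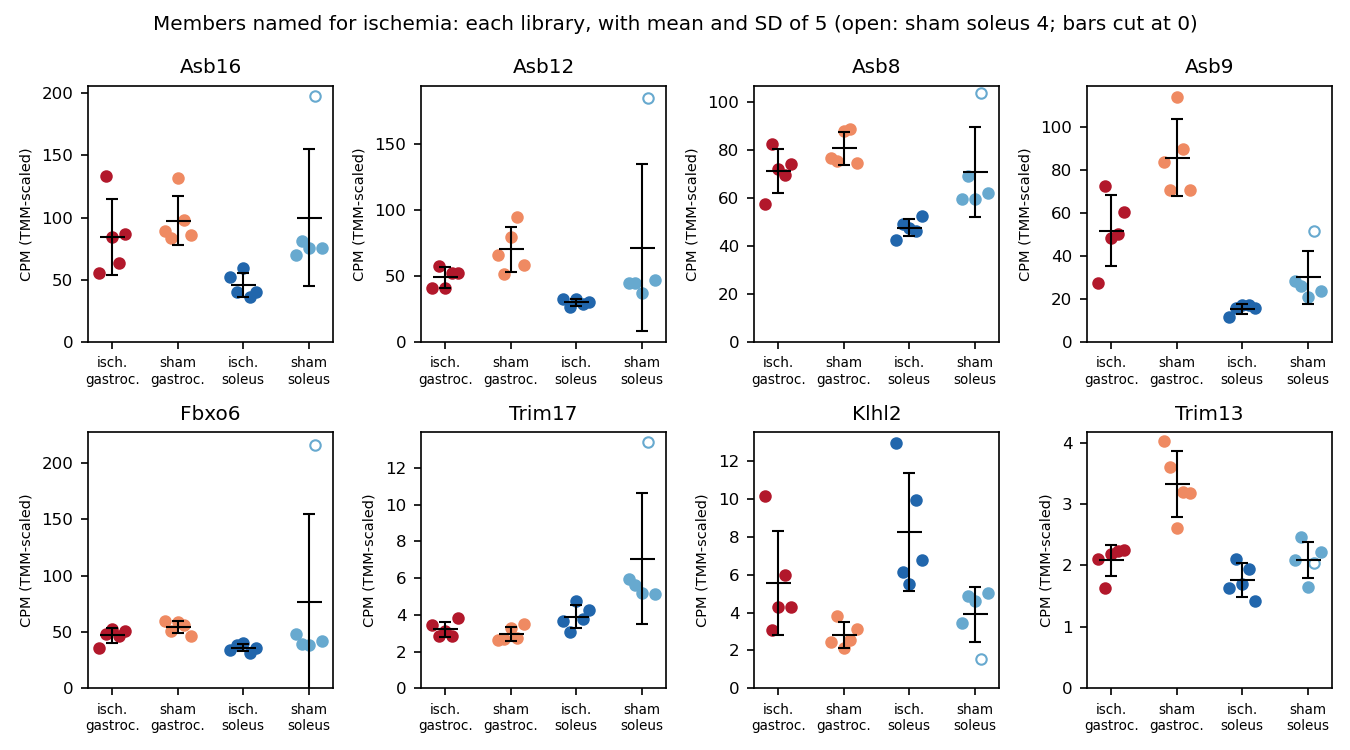
CPM (TMM-scaled) in each library of 8 members with the smallest p of their family for ischemia or no overlap in soleus; bars are the mean and SD of 5 libraries, cut at 0, and the open circle is sham soleus 4. In ischemic soleus Asb16, Asb12, Asb8 and Asb9 lie below all sham soleus libraries, and Klhl2 lies above them.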

How the data were processed

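The deposited table gives, per the file headers, expected counts and FPKM for each library. The authors made the FPKM values relative to length and depth. No label or header states the counting program, build or annotation. The counts are whole numbers and were used as deposited, with a total of 53.6 to 85.4 M per library. Between 28.3% and 36.5% of counts from 1 to 40 are multiples of 4, so totals are not read as fragments. No 2 libraries were identical.

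Entries with at least 1 FPKM in at least 5 libraries (11693) were fitted with edgeR 4.0.16 in R 4.3.3 (TMM factors, robust quasi-likelihood, 4 group terms, 20 libraries), two-sided, with Benjamini-Hochberg adjustment over all of them, and called below 0.05. The fits were tested on simulated data. CPM was computed from the counts. Alternatives included DESeq2 1.42.0 and limma 3.58.1. The added alternatives, DESeq2 without sham soleus 4 and the slope on the fibre score, were chosen after seeing the data. The members and lists were chosen with earlier results of these data known. The rule names, per comparison and family, up to 3 called members with the largest change each way or the 1 with the smallest p, the 5 most abundant, and a panel of muscle-linked members. Outside this rule Klhl5, Klhl20, Klhl23, Klhl25 and Trim41, and Asb9 and Trim17 for ischemia in soleus, were named after their values were seen. Cul1, Cul5, Flnc and Lmod3 were named as partners of members described. Promoter windows are from RefSeq.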

Additional observations from a re-analysis of the deposited data

Results flagged for a closer look

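In 33 of 216 groups of 5 libraries tested (54 named members, 4 groups), 1 library lay far from the other 4. Chance flags about 1 in 20 groups. Sham soleus 4 gave 19 of the 33, and the other libraries gave 14. In CPM, sham soleus 4 was far above the rest of its group for Asb10 at 63.2, Asb12 at 185, Asb16 at 198, Asb18 at 166, Asb8 at 104, Asb9 at 51.5, Fbxo31 at 91.3, Fbxo6 at 216, Fbxo7 at 37.5, Klhl21 at 71.3, Klhl36 at 16.4, Klhl40 at 697, Trim17 at 13.4, Trim28 at 91.6 and Trim47 at 32.1. These directions hold for TMM-scaled CPM: in FPKM sham soleus 4 was the lowest of its group for Asb8, Asb10, Klhl21 and Trim28, within the range of the other 4 for Asb9, Fbxo7 and Fbxo31, and above it for the other 8. In CPM it was far below the rest for Asb14 at 20.6, Fbxo3 at 21.1, Klhl31 at 321 and Trim35 at 85.5.

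Ischemic gastrocnemius 2 was far above its group for Asb13 at 13.1 and Fbxo42 at 29.5 CPM. Ischemic gastrocnemius 2 was far below its group for Trim13 at 1.63 CPM. Ischemic gastrocnemius 3 was far above its group for Asb5 at 119 CPM. Sham gastrocnemius 2 was far above its group for Asb5 at 155 and Trim21 at 12.4 CPM. Sham gastrocnemius 2 was far below its group for Klhl30 at 69.8 CPM. Ischemic soleus 1 was far above its group for Klhl13 at 46.1 and Trim24 at 14.2 CPM. Ischemic soleus 1 was far below its group for Asb9 at 11.5 CPM. Ischemic gastrocnemius 1 was far above its group for Klhl13 at 36.7 CPM. Sham gastrocnemius 1 was far below its group for Klhl24 at 37.1 CPM. Sham gastrocnemius 4 was far above its group for Klhl38 at 110.4 CPM. Ischemic gastrocnemius 5 was far above its group for Trim7 at 27.9 CPM.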

How the results depend on the processing

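Of 57 results on named members, 1490 of 1767 values kept their side of the threshold over the alternatives, 249 lost the call, 28 gained it and none turned its direction. Without sham soleus 4, 12 of the 89 members turned direction in the sham muscle comparison, 23 for ischemia in soleus and 26 in the interaction. None of these was called with it, and Asb12 and Fbxo6 were called without it in the sham muscle comparison. Called under all 31 alternatives were 14 of 29 named members in the sham muscle comparison (Asb5, Asb9, Asb13, Asb18, Fbxo8, Fbxo34, Klhl8, Klhl21, Klhl30, Klhl31, Klhl33, Klhl40, Trim16 and Trim17) and 8 of 16 in the ischemic one. Not called in most of them were Asb4, Asb14, Klhl7, Klhl22, Trim24 and Trim32 after sham and Asb16, Trim16 and Trim35 after ischemia. Counts of called members moved most with the tool and with single libraries. Shares of all genes are given above for only some of these settings, so the counts are not read as results about the members. In the sham muscle comparison 32 became 15 with only the groups compared, 56 with voom quality weights and 49 with DESeq2 without sham soleus 4, and 22 to 44 over the libraries left out in turn, 44 without sham soleus 4. In the ischemic muscle comparison 18 became 36, 47 and 43 under the same 3 settings, and 9 to 39 over the libraries left out, 9 without ischemic gastrocnemius 2 and 39 without sham soleus 4. For ischemia in soleus 0 became 1 with RLE factors, 9 with DESeq2, 7 with limma on log2(FPKM + 1), 3 on log2(FPKM + 0.1), 23 with voom weights and 13 with DESeq2 without sham soleus 4, and 0 to 6 over the libraries left out, 6 without sham soleus 3 or 4 and 5 without sham soleus 5. For ischemia in gastrocnemius 0 became 1 with DESeq2, 3 with voom weights and 3 with DESeq2 without sham soleus 4. The cause was not tested. The split of 20 higher and 12 lower in the sham muscle comparison became 13 and 11 with no filter, 12 and 11 with limma on log2(FPKM + 1) and 11 and 11 on log2(FPKM + 0.1), and that of 14 and 4 in the ischemic one became 5 and 13 on log2(FPKM + 0.1). With the replicate block the counts were 0 and 0 for ischemia in gastrocnemius and soleus, 0 for the interaction, and 27 and 16 for the sham and ischemic muscle comparisons. Same-numbered libraries correlated from 0.006 to 0.435 between the ischemic muscles and from -0.208 to 0.319 between the sham muscles. The numbers were not read as pairs, since not every pair passed 0.1, a rule that cannot show that the libraries came from different rats. Between the ischemic muscles the median was 0.402 for the same number and -0.096 for other numbers, 4 of 5 pairs passed 0.1 and 3 of 5 libraries correlated best with their own number, a hint of pairing from the data. Low members, such as Asb13 near 1 CPM in sham soleus, rest on fewer counts.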
